A study of Drosophila melanogaster with 12 samples.

Results

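The genes described here encode subunits of the vacuolar proton pump (V-ATPase) of Drosophila melanogaster and were taken as all genes whose symbol begins with Vha. The name table held 33 such symbols, and 32 of the 17617 genes in the deposited tables carried one. The gene of the C subunit, Vha44, was not analysed here. Of the 32 genes, 20 reached a value of 10 in 3 or more of the 12 libraries and were tested, and 12 fell short of that filter. Nearest the threshold, Vha36-3 reached 10 in 6 libraries and VhaAC45RP in 2. The rule picks genes by name and uses no measured value.

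The pump is a rotary machine of a cytosolic and a membrane sector. In the cytosolic sector, V1, subunits A and B form the ring that splits ATP, D and F form the turning stalk, and C, E, G and H hold the ring in place. In the membrane sector, V0, a ring of c and c'' proteolipids turns against subunit a, through which protons cross, while d and e are smaller V0 subunits and AC45 is an accessory subunit. The pump acidifies lysosomes, endosomes and secretory granules in most cells, and in the fly midgut it also takes part in acid secretion by copper cells.

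RNA came from GFP-positive progenitor cells sorted from the midguts of adult females and was read near the 3′ end of each transcript. The control genotype was the driver line esgtsGFP crossed to w1118 and the knockdown genotype, trxRNAi, was the same driver crossed to UAS-trxRNAi (BDSC#33703), so all groups shared the driver and its GFP, which are active in both the stem cells and the enteroblasts of the gut, so the sort holds a mixture of these. Mated females 3 to 4 days old were held at 29 °C for 7 days and were fed 5% sucrose or 3% dextran sulfate sodium (DSS), an agent that injures the gut epithelium, during the final 48 h. Each of the 4 groups held 3 libraries, and the labels did not say whether these came from separate sets of flies, so p-values measure the spread between these samples only.

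The deposited values are whole numbers, taken here as read counts that had been scaled and rounded, with totals of 5362337 to 6520981 per library. Differences below are those of log2(value + 2) from one limma model of all 12 libraries, with standard error (SE) and a Benjamini-Hochberg adjusted p over 8399 genes, called at 0.05. The log2(value + 2) scale understates changes of low genes, and a fold below is that of value + 2. The knocked-down gene trx had values of 1114, 1217 and 1313 in control sucrose and 668, 667 and 448 in trxRNAi sucrose. Under DSS the libraries labelled control had 841, 1041 and 652 and those labelled trxRNAi had 715, 758 and 808, and that difference did not pass the test (adjusted p = 0.772), so the groups under DSS are named only as labelled. All 7 measured genes of a list of progenitor markers passed the filter, with a summed value of 4024 to 6476. Of those 7, spdo was higher in trxRNAi under sucrose (2.25, adjusted p = 0.00108) and lower under DSS (-1.63, adjusted p = 0.00703), and mira was lower under DSS (-2.16, adjusted p = 0.000686). Of 6 hemocyte markers crq had 504 to 1258, srp 0 to 17 and the other genes at most 4, with He at 0. Of 5 Malpighian tubule markers tyn had 38 to 152, lower in trxRNAi under DSS (-1.18, adjusted p = 0.0234), Uro had 0 to 24 and the other genes at most 2.

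For nearly every subunit a single gene supplied most of the pump transcripts in these cells. The proteolipid gene Vha16-1 (subunit c, the gene for the rotor ring, of which each pump holds several copies) had by far the highest level, from 8065 to 10530 in the 12 libraries, and made up 45.0 to 52.5% of the summed Vha value. Each transcript yields reads from its 3′ end, so levels were compared between genes as deposited values and were not divided by transcript length. Below Vha16-1 the order of mean values was Vha13 (subunit G) at 1384, Vha68-2 (A) at 1246, Vha26 (E) at 1099, VhaAC45 (accessory) at 1077, Vha55 (B) at 1062, VhaAC39-1 (d) at 800.4, VhaSFD (H) at 735, VhaM9.7-b (e) at 599, Vha36-1 (D) at 449, Vha14-1 (F) at 442, VhaPPA1-1 (c'') at 350.2, Vha100-1 (a) at 263 and Vha100-2 (a) at 236. The range of Vha16-1 did not overlap that of any other gene, while each later gene in this order overlapped the next in its range over the libraries, down to Vha100-2. The next gene, Vha100-5 (a), had 17 to 148 and lay wholly below Vha100-2, which had 192 to 273. The genes of V1 subunits A, B, E and G, which are present in several copies per pump, thus stood in the same range as the accessory gene VhaAC45, and those of D and F stood lower. All Vha genes together summed to 0.281 to 0.361% of the total value per library.

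**Figure D1:**
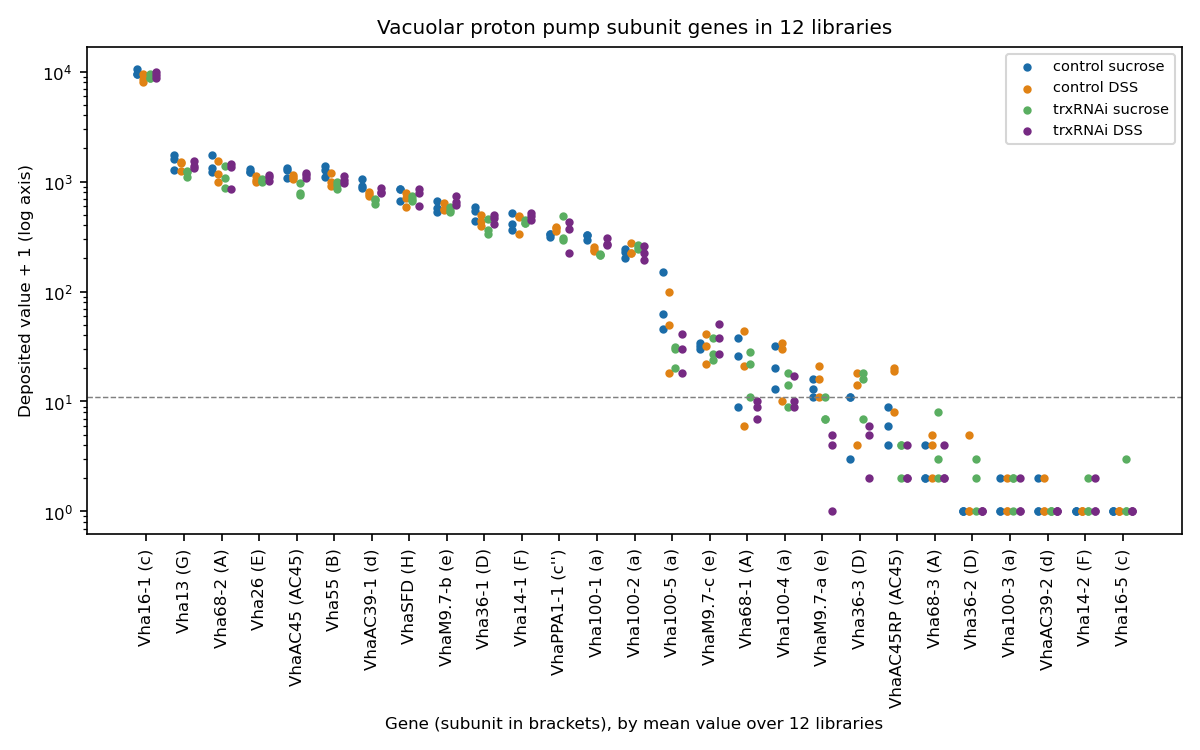
Deposited value plus 1 on a log axis for the 27 Vha genes with a value above 0 in any library, ordered by mean, with 1 point per library coloured by group and the dashed line at a value of 10. The 14 genes on the left, from Vha16-1 to Vha100-2, lie at 192 or above in every library, and Vha16-1 alone lies at 8065 or above.

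Several subunits had paralogs that were barely detected. Vha16-2, Vha16-3, Vha16-4, VhaPPA1-2 and VhaM9.7-d were listed at 0 in all 12 libraries. Vha16-5, Vha14-2, VhaAC39-2 and Vha100-3 reached at most 2, and Vha36-2 at most 4. Vha68-3 had 1 to 7. Thus Vha16-1 held at least 99.98% of the summed value of subunit c in each library, Vha14-1 at least 99.76% of subunit F, and VhaAC39-1 at least 99.87% of subunit d. The accessory paralog VhaAC45RP also fell short of the filter, with values on sucrose of 5, 8 and 3 in control and 3, 1 and 3 in trxRNAi, and on DSS of 19, 7 and 18 in control and 3, 1 and 1 in trxRNAi. Its 3 control DSS libraries lay above the 6 trxRNAi libraries. In an alternative fit that kept every gene above 0 in any library, it was lower in trxRNAi under DSS by the limma test (-2.13 ± 0.52, adjusted p = 0.0205).

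Under sucrose, the homeostatic condition, most of the well-expressed pump genes had lower values in trxRNAi than in control libraries, but by small amounts, and a single gene passed the test. VhaAC45 (FBgn0262515, chromosome 2R, 9207561 to 9209774 in dm6 coordinates), whose product is the AC45 accessory subunit, known in mammals to guide the pump to secretory organelles, had 1341, 1086 and 1280 in control sucrose and 784, 964 and 754 in trxRNAi sucrose. All 3 knockdown libraries lay below all 3 controls. It fell by 0.57 ± 0.15 (SE) on the log2 scale, a 1.48-fold lower value + 2, with an adjusted p of 0.0373. Of the 20 genes 0 were higher and 1 was lower, and over all 8399 genes 4.68% were called, 2.36% higher and 2.32% lower, so the share called was near the background. The VhaAC45 call ended without control sucrose replicate 1 (adjusted p = 0.109) or 3 (0.107) and without trxRNAi sucrose replicate 1 (0.144) or 3 (0.138), and the adjusted p ran from 0.0356 to 0.144 over 15 alternatives, of which 7 kept the call.

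The next smallest p-values in this comparison belonged to 2 membrane-sector genes. VhaAC39-1 (FBgn0285910, chromosome X, 3880748 to 3882967), for subunit d at the foot of the central stalk, had 1065, 869 and 903 in control sucrose and 618, 684 and 690 in trxRNAi sucrose, a difference of -0.50 ± 0.15 (adjusted p = 0.0562). Vha100-1 (FBgn0028671, chromosome 3R, 29131193 to 29137980), for the subunit a isoform known in the fly for its role at synapses, had 328, 323 and 293 against 220, 215 and 216, a difference of -0.53 ± 0.15 (adjusted p = 0.0590). In both genes the 2 groups did not overlap, and neither passed the threshold. In the ATP-splitting ring, Vha55 (subunit B) had 1396, 1090 and 1280 in control sucrose and 850, 924 and 991 in trxRNAi sucrose (-0.44 ± 0.16, adjusted p = 0.122), without overlap. Of the other V1 genes, Vha13 (-0.35 ± 0.16) and Vha26 (-0.29 ± 0.14) also had all knockdown libraries below all controls, while the libraries of Vha36-1 (-0.44 ± 0.17), Vha68-2 (-0.37 ± 0.23) and VhaSFD (-0.17 ± 0.18) overlapped between groups, and none of these passed the test. Vha16-1 differed by -0.13 ± 0.12, with a 95% confidence interval from -0.39 to 0.12.

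Among the 14 genes with a median value of at least 100, 11 had a negative difference under sucrose, with a median of -0.32 against a median of 0.01 for all genes tested. The exceptions were Vha14-1 (0.00 ± 0.18), VhaPPA1-1 (0.10 ± 0.23) and Vha100-2 (0.19 ± 0.17). When all libraries were brought to equal totals, which moved the median of all genes to 0.10, 10 of these 14 stayed negative with a median of -0.23. Of the 20 tested genes, 8 had all trxRNAi sucrose libraries below all control sucrose libraries and 0 had them all above, while 11.7% of all tested genes did not overlap in each direction. At these group sizes the median 95% confidence interval of a Vha gene reached 0.37 to either side on the log2 scale, so differences of the size seen here were at the limit of what could be measured. Enteroendocrine markers moved with genotype: their 10 genes summed to 19021 to 28201 in control sucrose and 4693 to 6520 in trxRNAi sucrose, with 7 called lower and 1, pros, called higher (1.38, adjusted p = 0.0385). Their part in the pump gene differences was not tested. In sorted bulk cells, fewer cells of a type and less RNA per cell cannot be told apart.

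**Figure D2:**
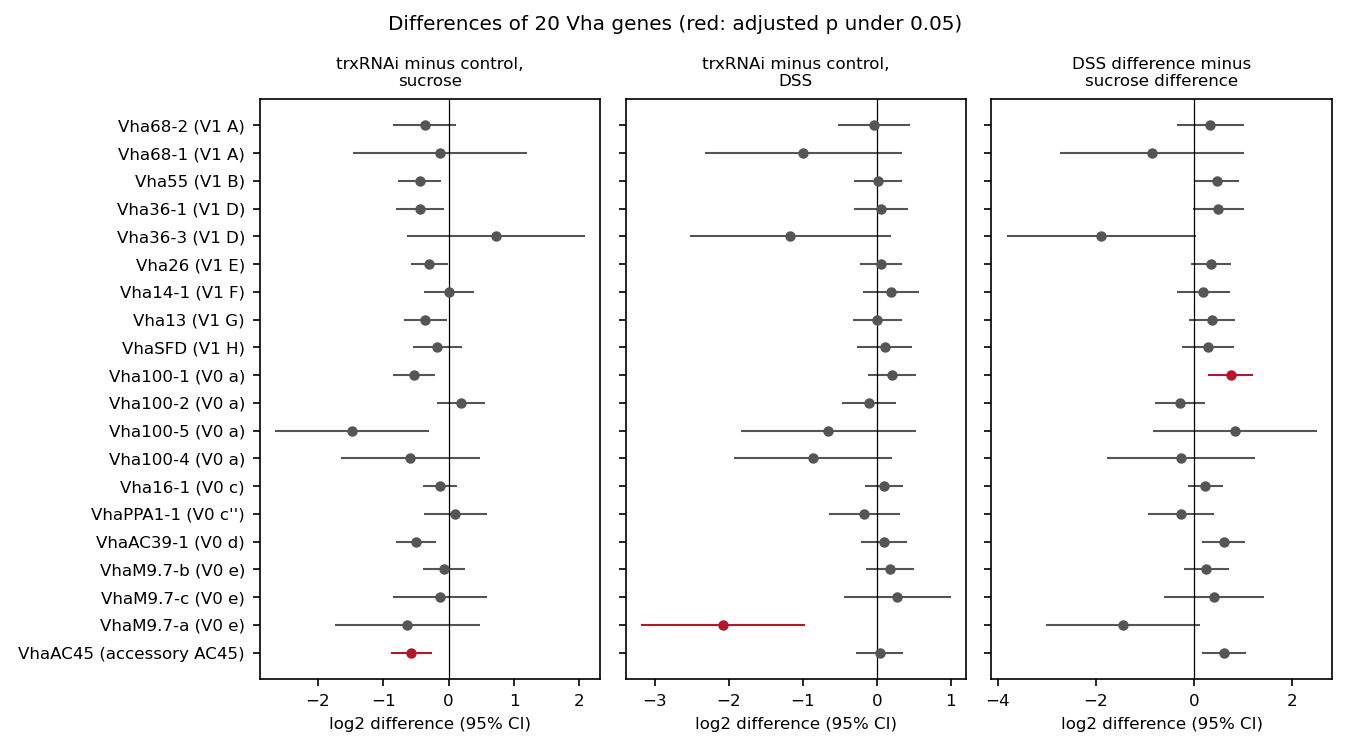
Log2 differences of value + 2 with 95% confidence intervals for the 20 tested Vha genes, for trxRNAi minus control under sucrose, the same under DSS, and the DSS difference minus the sucrose difference, with red for an adjusted p under 0.05. VhaAC45 is the called gene under sucrose, VhaM9.7-a under DSS and Vha100-1 in the difference between feeds.

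Under DSS, the regenerative condition, the well-expressed pump genes stood close together in the 2 genotypes. Of the 14 genes 11 had a positive difference, with all 14 between -0.17 and 0.21 and a median of 0.06, though 7 were positive without control DSS replicate 2, and all genes tested had a median of -0.01. With all libraries brought to equal totals, the median of all genes became -0.13 and that of the 14 genes -0.07, so their direction depended on the scaling. VhaAC45 had 1157, 1045 and 1110 in control DSS and 1066, 1199 and 1138 in trxRNAi DSS. These groups overlapped, and the 95% confidence interval of the difference ran from -0.28 to 0.36. Vha55 differed by 0.01 ± 0.16 and VhaAC39-1 by 0.10 ± 0.15. Vha100-1 had the largest difference of the 14, with 251, 235 and 237 in control DSS below 307, 267 and 265 in trxRNAi DSS, yet 0.21 ± 0.15 did not pass (adjusted p = 0.476).

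The gene called under DSS was a minor one. VhaM9.7-a (FBgn0035521, chromosome 3L, 4262705 to 4263464), a paralog for subunit e of the membrane sector, had 10, 12 and 15 in control and 6, 6 and 10 in trxRNAi on sucrose, and 15, 20 and 10 in control and 0, 4 and 3 in trxRNAi on DSS. All trxRNAi DSS libraries lay below all control DSS libraries, and the gene fell by 2.07 ± 0.53, or 4.21-fold in value + 2, with an adjusted p of 0.0174. It reached 10 in 7 libraries, namely all 6 controls and 1 of trxRNAi sucrose, and in no trxRNAi DSS library. VhaM9.7-a thus entered the test through groups where it was high, so its call and lack of overlap are not independent of the filter. Of the 20 genes 0 were higher and 1 was lower under DSS, and of all genes 9.44% were called, 3.82% higher and 5.62% lower. Vha100-1 was the 1 gene with all libraries labelled trxRNAi above all labelled control and VhaM9.7-a the 1 with all below, against 12.2% and 13.3% of all genes. In the same comparison 8 of 10 enteroendocrine markers and 4 of 5 neuron markers were called lower, with medians of -2.42 and -2.24, and their part in the VhaM9.7-a result was not tested. The call ended without control DSS replicate 1 (adjusted p = 0.0588) or 2 (0.0738) and without trxRNAi DSS replicate 1 (0.0915), and the adjusted p ran from 0.00827 to 0.0915 over 14 alternatives. Its main paralog VhaM9.7-b had 575, 527 and 660 in control and 556, 533 and 580 in trxRNAi on sucrose, which overlapped. It had 554, 566 and 644 in control DSS and 735, 649 and 613 in trxRNAi DSS, a difference of 0.18 ± 0.15 that did not pass (adjusted p = 0.563).

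Feeding DSS called no pump gene in either genotype by the limma test. In control progenitors 0 of 20 passed against 3.08% of all genes (1.73% higher, 1.36% lower), with 1 gene, Vha100-1, at an unadjusted p under 0.05 (-0.38 ± 0.15, adjusted p = 0.236), against 14.4% of all genes. Its control DSS values of 251, 235 and 237 all lay below its control sucrose values. The median over the 14 well-expressed genes was -0.19, or -0.05 at equal library totals. Without overlap, VhaPPA1-1 was the 1 gene higher with DSS and 3 (Vha100-1, Vha26 and VhaAC39-1) were lower, against 7.97% and 8.17% of all genes. In trxRNAi progenitors 0 of 20 passed against 3.55% of all genes (0.964% higher, 2.58% lower), with 5 genes at an unadjusted p under 0.05, against 12.6% of all genes. Of these 5, Vha100-1, VhaAC39-1 and VhaAC45 were higher with DSS and Vha36-3 and VhaM9.7-a lower. Of the 14 genes 12 had a positive difference there, with a median of 0.17 against 0.00 for all genes, and equal library totals left 10 positive with a median of 0.09. The largest of these was VhaAC45 at 0.45 ± 0.15 (adjusted p = 0.141), whose 3 trxRNAi DSS libraries lay above its 3 trxRNAi sucrose libraries. Without overlap, 6 genes were higher with DSS in trxRNAi (Vha100-1, Vha13, Vha14-1, VhaAC39-1, VhaAC45 and VhaM9.7-b) and 3 were lower (Vha36-3, Vha68-1 and VhaM9.7-a), against 9.67% and 11.4% of all genes. The 3 lower genes reached 10 in no trxRNAi DSS library and passed the filter through other groups. Their count is thus not independent of the filter, nor is the count of 5 above, which holds Vha36-3 and VhaM9.7-a. The feed and genotype comparisons share libraries and are not independent of each other.

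The difference between the genotype effects under the 2 feeds was tested as an interaction. Vha100-1 passed, with an interaction of 0.74 ± 0.22 (adjusted p = 0.0416). Its values were lowest in trxRNAi sucrose (215 to 220), then control DSS (235 to 251), then trxRNAi DSS (265 to 307) and control sucrose (293 to 328), and among neighbours in this order only the last pair overlapped. The call ended when any single library was left out, with adjusted p between 0.0520 and 0.0963, and at 0.177 with equal library totals, within a range of 0.0362 to 0.177 over 20 alternatives. VhaAC45 (0.61 ± 0.21, adjusted p = 0.0933) and VhaAC39-1 (0.60 ± 0.21, adjusted p = 0.0831) did not pass. Of the 20 genes 1 had a higher and 0 a lower interaction, against 8.86% of all genes (3.61% higher, 5.25% lower). Of the 14 well-expressed genes 12 had a positive interaction, with a median of 0.34 against -0.01 for all genes, or 0.12 against -0.23 with equal library totals. The gene trx itself had an interaction of 0.92 ± 0.27 (adjusted p = 0.0416). Among cell type markers, called interactions of both signs were present. The copper cell gene lab (3.82, adjusted p = 0.000430) had the same order of group means as Vha100-1, and the enterocyte marker exex (3.84, adjusted p = 2.59e-05) and the enteroendocrine markers AstC (1.93, adjusted p = 0.000362) and Orcokinin (1.73, adjusted p = 0.0284) were also positive. Of 9 tested enterocyte markers exex alone was called, 5 were positive, and the list median was 0.03. Another 4 enteroendocrine markers had called negative interactions, as did 4 of 5 neuron markers, 2 of 7 progenitor markers and the Malpighian tubule marker tyn. The enteroendocrine list summed to 20951 to 25628 in control DSS and 2600 to 3970 in trxRNAi DSS. Of the 6 hemocyte markers crq alone passed the filter (interaction 1.82, adjusted p = 2.54e-05), and the list summed on sucrose to 915 to 1145 in control and 587 to 599 in trxRNAi, and on DSS to 508 to 671 in control and 1142 to 1267 in trxRNAi, with He at 0 throughout. The 5 neuron markers, all past the filter, summed on sucrose to 980 to 1199 in control and 1125 to 1404 in trxRNAi, and on DSS to 1198 to 1815 in control and 761 to 1041 in trxRNAi. The part of these markers' cells in the Vha100-1 result was not tested.

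**Figure D3:**
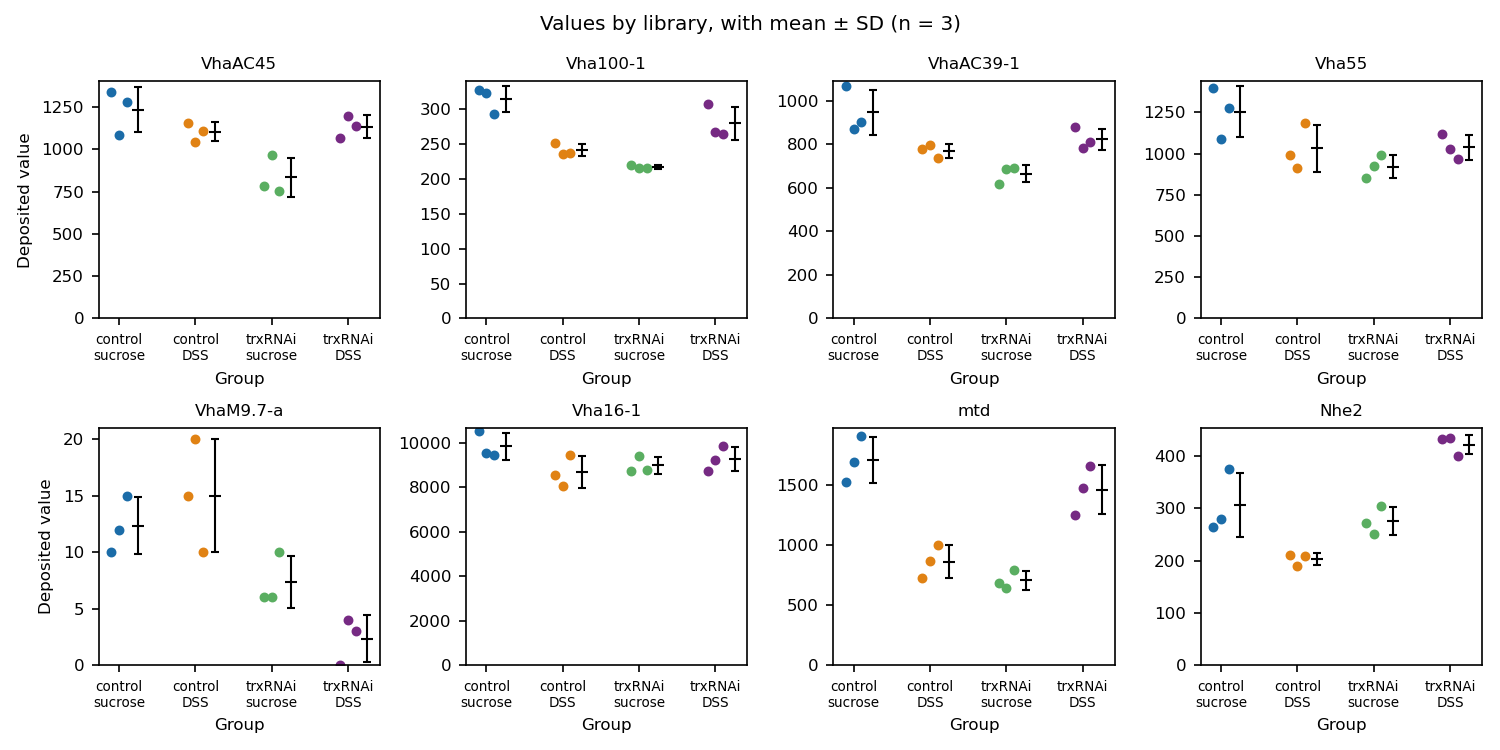
Deposited values in each library by group for 6 Vha genes and for mtd and Nhe2, each with the group mean and SD (n = 3) beside the points and each axis starting at 0. VhaAC45, VhaAC39-1 and Vha100-1 have their lowest group in trxRNAi sucrose, VhaM9.7-a has its lowest in trxRNAi DSS, and mtd is high in control sucrose and trxRNAi DSS.

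Paralogs were compared on the difference of their log2(value + 2) within each library, for the 11 pairs in 4 subunits in which both genes passed the filter. The test was an exact permutation test of the spread between the 4 groups over all 369600 assignments of the libraries, with p-values adjusted over the 11 pairs. Subunit a was the one with 2 genes at similar levels. Vha100-2 (FBgn0028670, chromosome 3R, 18390323 to 18399169) had 243, 200 and 229 in control and 265, 255 and 243 in trxRNAi on sucrose, and 273, 223 and 225 in control and 192, 257 and 222 in trxRNAi on DSS. Its groups overlapped, or met at 243 in the case of the 2 sucrose groups. Vha100-1 minus Vha100-2 was 0.49 ± 0.17 (SD, n = 3) in control and -0.23 ± 0.05 in trxRNAi on sucrose, and 0.01 ± 0.11 in control and 0.33 ± 0.31 in trxRNAi on DSS. The 4 groups differed (exact permutation p = 0.00870, adjusted p = 0.0319). Vha100-1 was the higher of the pair in all 3 libraries of control sucrose and of trxRNAi DSS, and Vha100-2 in all 3 of trxRNAi sucrose. Vha100-1 made up 43.7 to 53.5% of the summed subunit a value in control sucrose and 41.3 to 44.4% in trxRNAi sucrose, where Vha100-2 made up 49.7 to 49.9%. The call ended without any library of control sucrose, control DSS or trxRNAi sucrose and without trxRNAi DSS replicate 3, with adjusted p up to 0.115 (range over 14 alternatives 0.00536 to 0.115).

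The other a isoforms were lower and more scattered. Vha100-5 had 148, 62 and 45 in control and 30, 29 and 19 in trxRNAi on sucrose, and 49, 97 and 17 in control and 17, 40 and 29 in trxRNAi on DSS. Its control sucrose libraries all lay above its trxRNAi sucrose libraries, but the difference of -1.48 ± 0.55 did not pass (adjusted p = 0.152). When the 6 sucrose libraries were fitted alone, Vha100-5 passed in place of VhaAC45. Vha100-4, a paralog that has been tied to acid secretion by copper cells in the fly, had 31, 19 and 12 in control and 17, 13 and 8 in trxRNAi on sucrose, and 9, 33 and 29 in control and 8, 9 and 16 in trxRNAi on DSS. These groups overlapped, and no comparison of Vha100-4 passed. The copper cell gene lab had 26 to 44 in control and 1 in every trxRNAi library on sucrose, and 8 to 13 in control and 13 to 14 in trxRNAi on DSS. Enterocyte markers summed to between 2562 and 8503 and varied within groups, with 2806 to 8503 in control sucrose, and their part in the spread of Vha100-5 was not tested. None of the 5 pairs with Vha100-4 or Vha100-5 differed among groups, with adjusted p between 0.288 and 0.650.

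In subunit e, both ratios with the minor gene VhaM9.7-a were called, though this gene entered the test through groups where it was high. VhaM9.7-b minus VhaM9.7-a was 5.37 ± 0.19 (SD, n = 3) in control and 5.93 ± 0.29 in trxRNAi on sucrose, and 5.16 ± 0.54 in control and 7.41 ± 0.97 in trxRNAi on DSS (exact permutation p = 0.00214, adjusted p = 0.0118). VhaM9.7-c minus VhaM9.7-a also differed among groups (exact permutation p = 0.000974, adjusted p = 0.0107). Both calls were kept in all 14 alternatives, with adjusted p up to 0.0375. VhaM9.7-a made up 1.62 to 2.13% of the subunit e value in control sucrose and at most 0.569% in trxRNAi DSS. These 2 pairs share VhaM9.7-a with its values of 20 or less. It passed the filter through groups other than trxRNAi DSS, so these 2 calls are not independent of the filter. VhaM9.7-b minus VhaM9.7-c, 4.11 to 4.21 by group mean, was not found to differ (exact permutation p = 0.989, adjusted p = 0.989). VhaM9.7-c had 33, 31 and 29 in control and 26, 23 and 37 in trxRNAi on sucrose, and 40, 31 and 21 in control and 26, 50 and 37 in trxRNAi on DSS, with all groups overlapping. It shares positions with Teh2 on the same strand, a gene with values of 7 to 48, so reads of these 2 genes remained uncertain.

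In the cytosolic sector, subunit A came from Vha68-2, which had 1222, 1320 and 1741 in control and 1077, 882 and 1372 in trxRNAi on sucrose, and 1178, 983 and 1543 in control and 850, 1440 and 1344 in trxRNAi on DSS. All of its groups overlapped. Its paralog Vha68-1 had 37, 8 and 25 in control and 21, 10 and 27 in trxRNAi on sucrose, and 20, 5 and 43 in control and 9, 8 and 6 in trxRNAi on DSS. Vha68-1 held at most 2.93% of the subunit, and it was under 10 in every trxRNAi DSS library and in 1 library of each control group. Subunit D came from Vha36-1, with 580, 440 and 537 in control and 363, 335 and 452 in trxRNAi on sucrose, and 491, 392 and 433 in control and 463, 494 and 409 in trxRNAi on DSS. Its groups also overlapped. The paralog Vha36-3 had 10, 2 and 10 in control and 15, 17 and 6 in trxRNAi on sucrose, and 13, 17 and 3 in control and 4, 5 and 1 in trxRNAi on DSS. Neither ratio was found to differ among groups (exact permutation p = 0.350 and adjusted p = 0.438 for subunit A, exact permutation p = 0.146 and adjusted p = 0.322 for subunit D).

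**Figure D4:**
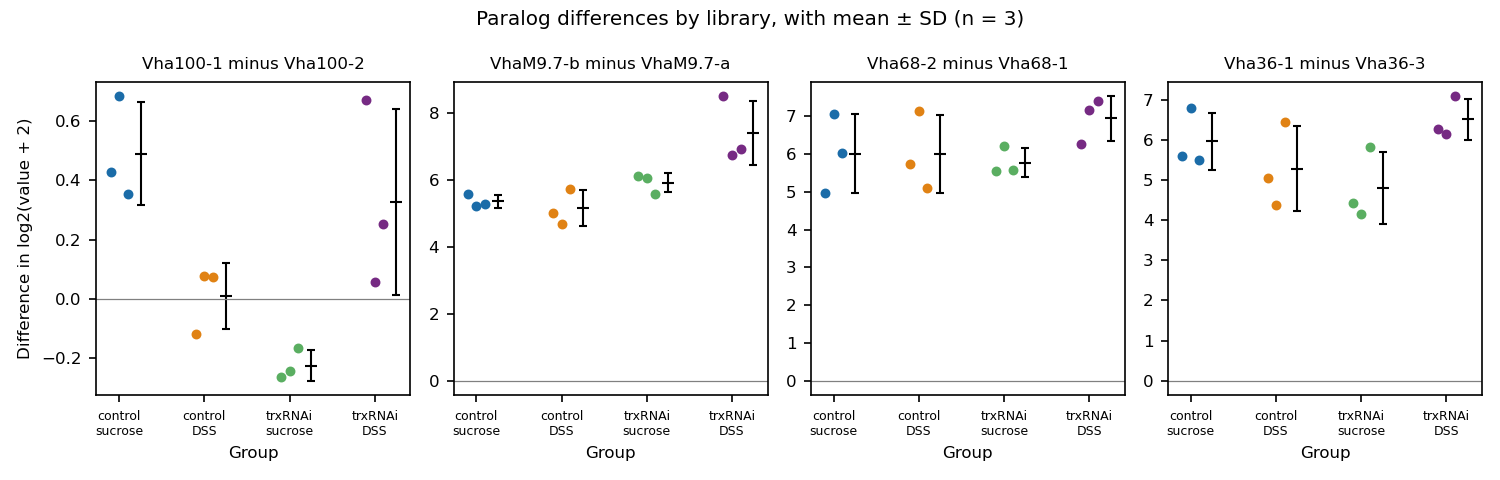
Difference in log2(value + 2) between 2 paralogs in each library by group, with mean and SD (n = 3), for subunits a, e, A and D. Vha100-1 minus Vha100-2 lies above 0 in all control sucrose and trxRNAi DSS libraries and below 0 in all trxRNAi sucrose libraries, and VhaM9.7-b minus VhaM9.7-a is highest in trxRNAi DSS.

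Among 4 measured genes of pump assembly and regulation, mtd stood out with changes in all 5 comparisons. It encodes a TLDc domain protein, a family of which a yeast member takes the pump apart. On sucrose it had 1533, 1693 and 1916 in control and 682, 645 and 795 in trxRNAi, and on DSS it had 728, 865 and 1000 in control and 1256, 1478 and 1661 in trxRNAi. The groups did not overlap in any of the 4 pairwise comparisons. mtd fell by 1.27 ± 0.17 in trxRNAi under sucrose (adjusted p = 0.000183), rose by 0.76 ± 0.17 under DSS (adjusted p = 0.00703), fell by 0.99 ± 0.17 with DSS in control (adjusted p = 0.00245) and rose by 1.04 ± 0.17 with DSS in trxRNAi (adjusted p = 0.00113). Each of these calls held in all 15 alternatives, with adjusted p of at most 0.0473. The pump regulators Rbcn-3A (83 to 181) and Rbcn-3B (242 to 368) and the accessory gene ATP6AP2 (402 to 574) passed in none of the comparisons.

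Genes of the lysosome and of other ion transport changed singly. Of 10 lysosomal nutrient-sensing genes, which act on the TOR kinase at the lysosome and include the transcription factor gene Mitf, 0 passed in any comparison by the limma test. Under sucrose, where the median of the 10 was -0.20, 3 had an unadjusted p under 0.05, against 18.3% of all genes. The interaction had 2, against 20.8% of all genes, and DSS in control had 1, against 14.4%. The remaining comparisons had 0, against 22.4% for genotype under DSS and 12.6% for DSS in trxRNAi. Of 18 tested lysosomal hydrolase and membrane genes, 1 fell under sucrose, where 2.32% of all genes fell, and 1 rose under DSS, where 3.82% of all genes rose. The cathepsin B gene CtsB had 1816, 1794 and 2125 in control sucrose and 1118, 1323 and 1124 in trxRNAi sucrose, and it fell by 0.69 ± 0.14 (adjusted p = 0.00783), a call lost without trxRNAi sucrose replicate 1 (0.0512). The cathepsin D gene cathD had 528, 504 and 513 in control DSS and 800, 710 and 842 in trxRNAi DSS, and it rose by 0.60 ± 0.14 (adjusted p = 0.0128). That call ended without trxRNAi DSS replicate 3 (0.0687), at 0.0555 with equal library totals and at 0.0528 with the 6 DSS libraries alone. cathD also fell with DSS in control by 0.55 ± 0.14 (adjusted p = 0.0460), which ended without any single one of the 6 libraries compared (0.0618 to 0.135) and at 0.163 with equal library totals.

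Of 12 genes of other proton, chloride and bicarbonate transport, 2 rose and 2 fell in trxRNAi under DSS, against 3.82% and 5.62% of all genes. Under sucrose 0 passed, against 4.68% of all genes, and 0 had an unadjusted p under 0.05, against 18.3%. The sodium/proton exchanger gene Nhe2 had 210, 190 and 208 in control DSS and 432, 434 and 400 in trxRNAi DSS, and it rose by 1.05 ± 0.17 (adjusted p = 0.000624), a call kept in all 15 alternatives. The carbonic anhydrase gene CAH1 had 63, 101 and 89 against 30, 43 and 17 and fell by 1.49 ± 0.33 (adjusted p = 0.00800). CAH2, another carbonic anhydrase gene, had 64, 56 and 63 against 19, 17 and 13 and fell by 1.79 ± 0.43 (adjusted p = 0.0125). Both calls ended without trxRNAi DSS replicate 3, at 0.0501 for CAH1 and 0.0545 for CAH2. CAHbeta rose by 0.79 ± 0.24 (adjusted p = 0.0455), and its call ended without any single one of the 6 DSS libraries (0.0537 to 0.154) and at 0.0972 with equal library totals. With DSS in trxRNAi, CAH1 fell by 1.45 ± 0.33 (adjusted p = 0.0184), a call lost without trxRNAi sucrose replicate 1 (0.0664), 2 (0.0745) or 3 (0.0743) and without trxRNAi DSS replicate 3 (0.114).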

How the data were processed

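Sorted progenitor RNA of 12 libraries in 4 groups was measured with a 3′ mRNA kit, per the labels' protocols. The deposited values are whole numbers, treated as a score. In 11 of 12 libraries low values had empty or doubled classes, as left when read counts are multiplied by a factor and rounded. They were therefore taken as scaled before deposit. The submitters' processing notes name the dm6 build, the aligners HISAT2 and Bowtie2, bcl2fastq, limma, edgeR, DESeq and DESeq2. Which counter, annotation, strand setting and scaling tool were used is not given in the sources used here. Such scaling sets typical genes level, and an overall gain or loss of RNA could not be seen.

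Gene symbols and positions were read from Ensembl's annotation of that assembly, and 17520 of 17617 identifiers matched a symbol. Values were taken as log2(value + 2) and fitted with limma 3.58.1 (R 4.3.3) with an intensity trend and robust variance. The fit was tested on simulated data. Paralog pairs were tested by exact permutation. Depth is known only as the scaled totals, so no counting interval is given. All Vha genes are accounted for, and values are given for those called or sharing a subunit, with up to 6 called genes per other list. The members, lists and filter were chosen with earlier results of these data known, and the group of 14 genes with a median of at least 100 and the cell type markers named singly after seeing these values. Alternatives were other scalings, pseudocounts, filters, variance models, a replicate block, fits of 6 libraries and leaving out each library.

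Reads of overlapping genes could not be told apart without strand. Vha100-1 ends within Alg13 on the other strand, whose values were 10 to 29. Vha100-2 overlaps Vti1b on the other strand, with 120 to 204, on the side where both genes start, away from their annotated 3′ ends.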

Additional observations from a re-analysis of the deposited data

Results flagged for a closer look

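Of the pump genes, the difference between the labelled genotypes depended on the feed by the interaction test for Vha100-1 (0.74 ± 0.22, adjusted p = 0.0416). Of the pump assembly, lysosomal and ion transport genes, it did so for mtd (2.04 ± 0.24, adjusted p = 2.15e-05), for cathD (0.81 ± 0.20, adjusted p = 0.0195), for Nhe2 (1.19 ± 0.24, adjusted p = 0.00383), for CAH1 (-1.84 ± 0.47, adjusted p = 0.0212) and for CAH2 (-2.21 ± 0.61, adjusted p = 0.0296), all by limma. Higher interactions were thus called for 1 of 4 pump assembly, 1 of 18 lysosomal hydrolase and membrane and 1 of 12 ion transport genes, against 3.61% of all genes. Lower ones were called for 2 of the 12, against 5.25%. The gene trx was not found to differ between the DSS groups by limma (adjusted p = 0.772), so these are named only as labelled. Leaving out 1 library kept the calls of mtd and Nhe2 in each case, while the highest adjusted p was 0.0963 for Vha100-1, 0.0624 for cathD, 0.0587 for CAH1 and 0.0875 for CAH2. The libraries whose loss ended the cathD call were trxRNAi sucrose replicate 1 and trxRNAi DSS replicate 3, and that call also ended with equal library totals (0.58, adjusted p = 0.0973). For CAH1 they were control sucrose replicates 2 and 3 and trxRNAi DSS replicate 3. For CAH2 they were control sucrose replicate 3, control DSS replicate 1, trxRNAi sucrose replicates 1 and 2 and trxRNAi DSS replicates 2 and 3, and that call also ended with no trend and no robust variance (adjusted p = 0.0529). For Vha100-1 they were all 12.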

How the results depend on the processing

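The number of Vha genes called was 1 under sucrose and became 0 with all libraries brought to equal totals, with no filter and with no trend and no robust variance, and 3 (VhaAC45, VhaAC39-1 and Vha100-1) with a filter of 5 CPM. Under DSS it was 1 and became 2 with no filter, and 0 with a filter of 5 CPM, which removed VhaM9.7-a, and with only the 6 libraries compared, where VhaM9.7-a had an adjusted p of 0.0661. The interaction count of 1 became 0 with equal totals, with no filter and with no trend and no robust variance. Leaving out each library gave 0 to 1 under sucrose, 0 to 1 under DSS, 0 for both feed comparisons and 0 for the interaction, and 2 to 3 of the paralog ratios. Both feed counts were 0 in all alternatives run, and pseudocounts of 0.5 and 10 changed no count. No called difference of a Vha gene, or of a pump assembly, lysosomal or ion transport gene, changed sign in these alternatives. The called cell type markers and trx were not followed singly in them. The uncalled differences of the 14 well-expressed Vha genes under DSS went from 11 positive to 3 positive with equal totals. The cause of these changes was not tested where no construction shows it. Over all genes, higher and lower calls went from 198 and 195 to 278 and 150 with equal totals under sucrose, from 321 and 472 to 200 and 594 under DSS, from 145 and 114 to 198 and 66 for DSS in control, and from 303 and 441 to 166 and 600 for the interaction. Over the alternatives, calls over all genes ran from 183 to 458 under sucrose, 532 to 930 under DSS, 93 to 299 for DSS in control, 167 to 398 for DSS in trxRNAi and 534 to 784 for the interaction. Deviations of libraries with the same replicate number correlated at -0.20 to 0.28 (median 0.07, 18 pairs), against -0.29 to 0.35 (median -0.04, 36 pairs) for other pairs. Since not every same-numbered correlation was over 0.1, the numbers were not taken to pair the libraries, though control sucrose and control DSS gave 0.08, 0.26 and 0.28. In a limma fit with the replicate number added as a block, the Vha counts stayed at 1 under sucrose, 1 under DSS and 1 for the interaction. CAHbeta (adjusted p = 0.0553) and cathD with DSS in control (0.0505) lost their calls in that fit. No other call among the Vha, pump assembly, lysosomal and ion transport genes changed there.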
